A study of Mus musculus with 3 samples.

Results

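CD8 T cells of the inflamed sciatic nerve were compared with conventional CD4 T cells of the same nerves. Cells were chosen by their own UMI counts, a UMI being a molecular barcode that stands for 1 captured RNA molecule. A T cell needed at most 5000 genes, at most 20% mitochondrial UMIs, at least 1 UMI of Cd3d, Cd3e or Cd3g, at most 1 UMI of C1qa, C1qb and C1qc together, and no UMI of the B cell gene Cd79a, the regulatory T cell gene Foxp3 or the cell division genes Mki67 and Top2a. CD8 T cells had at least 1 UMI of Cd8a or Cd8b1 and none of Cd4, and conventional CD4 T cells had at least 1 UMI of Cd4 and none of Cd8a or Cd8b1. The rule found 3292 of the 13770 cells (23.9%), of which 1843 were CD8 T cells and 1449 were conventional CD4 T cells. Because these 13 genes chose the cells, they were not tested.

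All cells were CD45+ immune cells sorted by flow cytometry after perfusion and collagenase digestion of sciatic nerves of neuropathic NOD.AireGW/+ mice, which were female per the study's methods. These mice are on the autoimmunity-prone NOD background and carry 1 mutated copy of Aire, the regulator that displays tissue antigens to developing T cells in the thymus, and they develop inflammation of peripheral nerves. A single mouse gave library 1 and another gave library 2, while the nerves of 2 mice were combined for library 3 and their cells cannot be assigned to either. Each library held both cell types, so the comparison was made within libraries, and no untreated or healthy group was used here.

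CD8 T cells recognise peptides on MHC class I molecules and are known for killing target cells with perforin and granzymes. Conventional CD4 T cells recognise peptides on MHC class II molecules and are known for helping B cells, macrophages and CD8 T cells through CD40 ligand and cytokines. The choice between these fates is made in the thymus and is maintained by the transcription factors Runx3 on the CD8 side and ThPOK, the product of Zbtb7b, on the CD4 side.

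Libraries 1 to 3 gave 765, 837 and 241 CD8 T cells and 533, 742 and 174 conventional CD4 T cells. The sums of UMIs over the cells of a library and side ranged from 346554 to 3392870, and library 3 was the shallowest for both cell types. CD8 T cells were the deeper side in 3 of 3 libraries, with a median of 3925, 3234 and 2100 UMIs per cell against 2981, 2480.5 and 1702.5. The libraries shared 36, 7 and 14 cell barcodes pairwise (1 with 2, 1 with 3, and 2 with 3). Of the T cells that passed the other limits, 26.9%, 44.2% and 60.3% in libraries 1 to 3 had neither coreceptor and 8.02%, 2.47% and 0.659% had both, and these cells were on neither side. A single coreceptor UMI placed 17.4%, 16.5% and 41.1% of the CD8 T cells and 39.4%, 59.4% and 75.3% of the conventional CD4 T cells. The CD8 to CD4 cell ratio was 1.44, 1.13 and 1.39 (mean 1.32 ± 0.165, SD, n = 3 libraries), and it depends on how well each coreceptor was captured: with at least 2 coreceptor UMIs it was 2.53, and with cells lacking both counted as CD4 it was 0.473.

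Zbtb7b and Runx3, lineage genes that the selection did not use, differed in the direction of the labels. Zbtb7b, which encodes ThPOK, was measured at 4.46, 2.92 and 0 CPM in CD8 T cells of libraries 1 to 3 and at 16.6, 14.0 and 9.10 CPM in conventional CD4 T cells. CPM give the UMIs of a gene scaled to a common total, and the 0 in library 3 allows up to 6.04 CPM (3 UMIs, counting error only). The 9.10 CPM of conventional CD4 T cells in library 3 also stands for 3 UMIs. The CD8 sums were below the CD4 sums without overlap, and the log2 difference was −2.11 (SE 0.37, edgeR adjusted p 0.00133). Runx3 was at 181, 113 and 171 CPM in CD8 T cells and at 80.1, 82.1 and 75.9 CPM in conventional CD4 T cells, again without overlap. It was higher in CD8 T cells by 0.88 (SE 0.14, edgeR adjusted p 0.000718). The labels do not set apart cells of either side that held gamma delta or NK UMIs. A filter on such UMIs, which did not remove the whole gamma delta signal, kept 595, 587 and 212 of the 765, 837 and 241 CD8 T cells. On the CD4 side, 509, 716 and 173 of 533, 742 and 174 remained.

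Across all genes, 655 of 9420 genes tested were higher in CD8 T cells (6.95%) and 664 were lower (7.05%), with a median log2 difference of 0.02. A call needed an adjusted p under 0.05 in the quasi-likelihood test of edgeR with the library as a block. Of the called genes, 625 were higher in 3 of 3 libraries and 628 lower, and the groups did not overlap for 312 and 406. Agreement in 3 of 3 libraries and non-overlap were not counted over all 9420 genes tested. So no share stands beside the 625 and 628 or the 312 and 406, and these counts are description only. Differences of at least 2-fold were seen for 223 and 330 genes. Called genes without library 1 were 426 higher and 454 lower, without library 2 they were 446 and 484, and without library 3 they were 665 and 699. Without the library block 87 and 112 genes were called, all 199 of them in the same direction as in the paired fit.

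**Figure D1:**
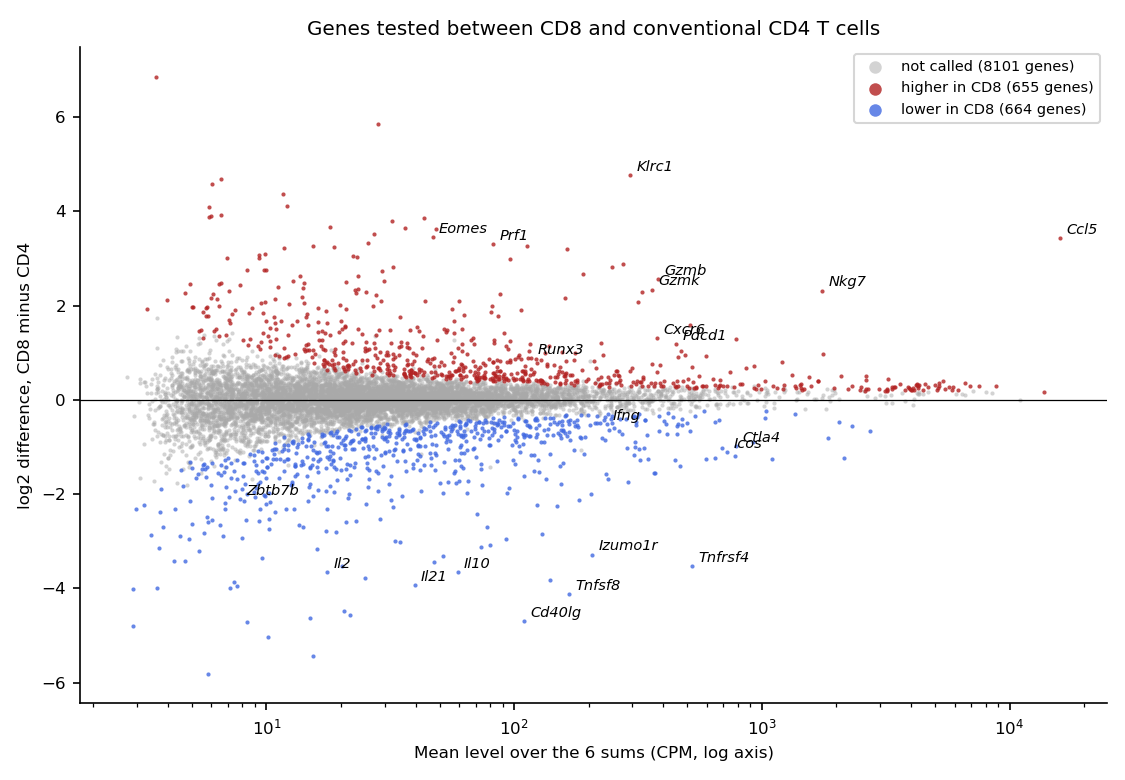
Each point is 1 of the 9420 genes tested, plotted by its mean level over the 6 sums (CPM, log axis) and its log2 difference, CD8 minus CD4. Red points were called higher in CD8 T cells (655), blue points lower (664), and labelled genes run from Klrc1 at 4.76 to Cd40lg at −4.70.

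Among genes at a mean of at least 50 CPM that moved the same way in 3 of 3 libraries, the 12 with the largest rise were Klrc1, Ccl5, Prf1, Klrk1, Cd7, Klrd1, Gzma, Gzmb, Gzmk, Nkg7, Ctla2a and Gpr18. The 12 largest falls were of Cd40lg, Tnfsf8, Tnfsf11, Il10, Tnfrsf4, Tiam1, Izumo1r, Ccr8, Gpm6b, Spry1, Tbc1d4 and Tspan32. For each of these 24 genes the 3 CD8 sums and the 3 CD4 sums did not overlap, and each was called without library 1, without library 2 and without library 3. Both traits are favoured by the choice of these genes, which took the largest differences in these same data. Of all 1319 called genes, 60.3%, 64.1% and 91.5% were called again without library 1, 2 and 3.

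**Figure D2:**
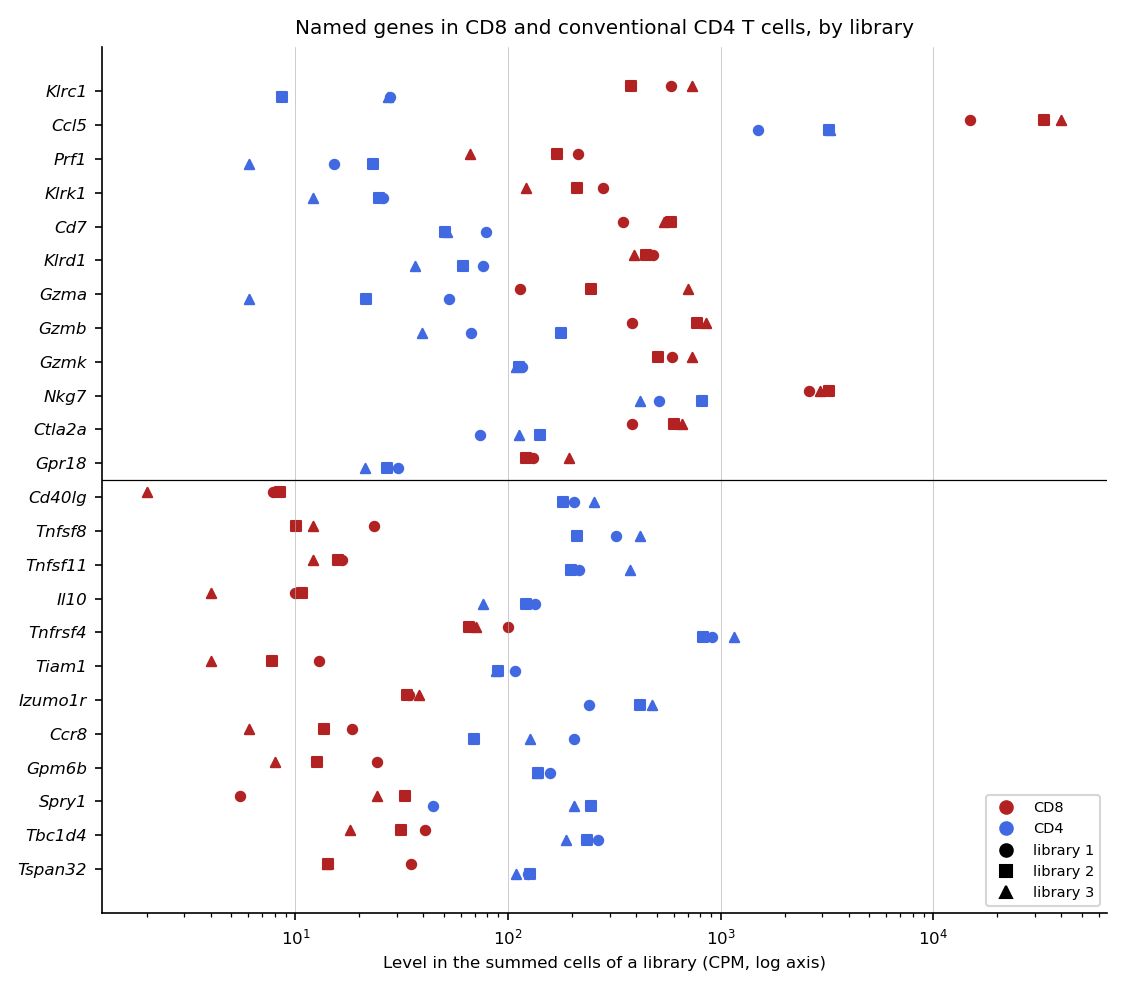
Levels of the 24 named genes in CPM (log axis) in the summed CD8 (red) and conventional CD4 (blue) T cells, with 1 marker per library. The line separates the 12 genes higher in CD8 T cells from the 12 lower, and in no row do the colours overlap: Klrc1 sits at 377 to 737 CPM against 8.67 to 27.9, and Cd40lg at 2.01 to 8.42 CPM against 182 to 255.

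Cytotoxic genes were higher in CD8 T cells. Of 18 granule and death ligand genes listed, 13 passed the filter on low counts and were tested, of which 11 rose, 1 fell and 1 did not pass, with a median log2 difference of 1.50. Prf1, the pore-forming perforin (chromosome 10, 61297833 to 61304680), was at 213, 169 and 66.5 CPM in CD8 T cells and at 15.2, 23.1 and 6.07 CPM in conventional CD4 T cells. Its lowest CD8 sum, in library 3, stood above the highest CD4 sum, and it was higher by 3.31 (SE 0.18, edgeR adjusted p 2.49e-08). Gzmb, the granzyme that triggers death of target cells, was at 382, 772 and 856 CPM against 67.1, 177 and 39.5 CPM (log2 difference 2.57, SE 0.21, edgeR adjusted p 1.2e-06). Gzmk, a granzyme of memory-type CD8 T cells, was at 589.7, 506 and 731 CPM against 117, 112 and 109 CPM (2.34, SE 0.10, edgeR adjusted p 3.38e-09). Neither gene's groups overlapped, and the CD4 levels of Gzmk were closer to each other across libraries than those of Gzmb. Gzma varied most among the CD8 sums, at 114, 246 and 703 CPM against 52.7, 21.5 and 6.07 CPM, and its rise of 2.67 (SE 0.42) was 4.04 without library 1 and 5.45 with cells holding gamma delta or NK UMIs left out, while with cells lacking both coreceptors counted as CD4 it was −0.16 and not called. Nkg7, a granule membrane protein, was at 2595, 3221 and 2924 CPM against 515, 821 and 416 CPM (2.32, SE 0.11). Fasl (0.99), Ctsw (1.59), Cst7 (0.82) and the granzyme B inhibitor Serpinb9 (1.50) also rose. With cells lacking both coreceptors counted as CD4, Serpinb9 was at −0.32, and 9 of 14 genes tested rose and 1 fell, with a median of 0.53. Tnfsf10, which encodes the death ligand TRAIL, rose by 0.96, but not past the threshold without library 2 (0.71, edgeR adjusted p 0.0515). Srgn, the proteoglycan core that packs granules, was the member that fell, by 0.56 on the log2 scale.

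NK-type receptors made up the other large CD8 group. Of 19 receptors and adaptors listed, 16 were tested, of which 13 rose, none fell and 3 did not pass, with a median log2 difference of 2.06. With cells lacking both coreceptors counted as CD4, 18 were tested, of which 8 rose and 9 fell, and the median turned to −0.45. Klrc1, which encodes the inhibitory chain NKG2A (chromosome 6, 129666015 to 129678973), was at 585, 377 and 737 CPM in CD8 T cells and at 27.9, 8.67 and 27.3 CPM in conventional CD4 T cells. The groups stood far apart in each library, with a difference of 4.76 (SE 0.16, edgeR adjusted p 5.01e-10). Its partner chain Klrd1 (CD94) rose by 2.82, the activating receptor Klrk1 (NKG2D) by 3.27 and the activating chain Klrc2 by 5.86, the last with 45.7, 49.6 and 72.5 CPM against 0.871, 0.826 and 0 CPM. Klre1 (3.86), Cd160 (3.33), Klra1 (3.06), Cd244a (1.94) and Slamf7 (1.48) rose as well. Klri2, Klrg1 and Klra9 rose by 2.18, 1.84 and 1.75, but were at 0.96, 0.78 and 0.03 without library 1, below the threshold, and Klra9 was also below it without library 3 (1.74). The adaptors Tyrobp (−0.22) and Fcer1g (0.31) did not pass, although Fcer1g was called higher without library 1 (0.49), and with cells holding B or myeloid UMIs left out they were higher in CD8 T cells by 2.43 and 2.65. Gamma delta T cell markers moved with this group: their summed level was 407, 510 and 344 CPM in CD8 T cells against 56.2, 65.2 and 24.3 CPM, and 4 of 5 tested were called higher, Trdc among them (3.25). The largest part of the sum was Trgv2, at 302, 338 and 246 CPM against 37.45, 33.4 and 21.2 CPM. Trdc was at 20.5, 62.5 and 20.1 CPM in CD8 T cells. Leaving out cells with gamma delta or NK UMIs kept 595, 587 and 212 CD8 T cells, and 11 of 15 NK-type genes tested were still called higher, with 1 called lower. This did not remove the whole gamma delta signal: 1 gamma delta marker could still be tested, and it was called higher, by 2.998. Whether the NK-type genes would rise without any gamma delta T cells was therefore not tested. Genes of the Klra and Klrc families are close in sequence, so their single values are less certain.

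Promoter windows of the named genes were read for the letters of 3 motifs, since Runx, T-box and E-box proteins are among the factors of these fates. RefSeq windows (GRCm38.p6, the assembly of mm10) of the 250 bases before a start site were found for 19 of the 24 named genes. Some windows hold annotated exon: 250, 182 and 166 bases for the lower genes Spry1, Izumo1r and Tnfrsf4. Among genes higher in CD8 T cells the most was 65 bases (Nkg7). The Runx letters TGTGGT, on either strand, were in the windows of 7 of 9 genes higher in CD8 T cells (Gpr18, Gzma, Gzmb, Klrc1, Klrk1, Nkg7 and Prf1) and of 3 of 10 lower genes (Izumo1r, Tiam1 and Tspan32), and in 14.0% of the 32851 windows in the table. The T-box letters GGTGTGA were in the windows of 2 genes higher (Gzmk and Nkg7) and of no gene lower, and in 3.33% of all windows. The E-box letters CAGCTG were in those of 1 gene higher (Prf1) and 2 lower (Tiam1 and Tspan32), and in 4271 of the 32851 windows. A Runx and a T-box match can share letters where one runs into the other, and a match is a description of the letters and not of binding. Windows of 3 genes higher in CD8 T cells and 1 lower are shown so that the matches can be read in place, on the coding strand 5′ to 3′ and ending at the last base before the start site, with matches in capitals. Gzmb (chr14:56262335-56262584, minus strand) holds 2 Runx matches, Klrc1 (chr6:129678974-129679223, minus strand) holds 1 in reverse complement, Gzmk (chr13:113180966-113181215, minus strand) holds 1 T-box match, and Tnfsf11 (chr14:78308044-78308293, minus strand), higher in CD4 T cells, holds none of the 3.
Gzmb: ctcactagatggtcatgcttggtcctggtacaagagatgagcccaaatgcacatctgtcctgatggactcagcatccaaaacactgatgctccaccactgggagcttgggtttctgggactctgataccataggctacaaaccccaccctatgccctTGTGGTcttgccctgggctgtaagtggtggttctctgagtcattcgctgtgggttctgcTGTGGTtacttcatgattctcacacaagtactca
Klrc1: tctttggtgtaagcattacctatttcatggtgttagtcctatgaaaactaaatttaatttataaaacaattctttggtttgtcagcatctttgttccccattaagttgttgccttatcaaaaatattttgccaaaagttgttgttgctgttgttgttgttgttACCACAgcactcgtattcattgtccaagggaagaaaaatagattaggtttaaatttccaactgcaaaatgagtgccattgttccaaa
Gzmk: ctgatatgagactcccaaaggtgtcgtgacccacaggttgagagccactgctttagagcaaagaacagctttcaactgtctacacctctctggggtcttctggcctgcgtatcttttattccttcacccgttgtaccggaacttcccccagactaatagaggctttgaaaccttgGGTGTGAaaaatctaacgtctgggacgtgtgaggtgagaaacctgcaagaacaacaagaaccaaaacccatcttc
Tnfsf11: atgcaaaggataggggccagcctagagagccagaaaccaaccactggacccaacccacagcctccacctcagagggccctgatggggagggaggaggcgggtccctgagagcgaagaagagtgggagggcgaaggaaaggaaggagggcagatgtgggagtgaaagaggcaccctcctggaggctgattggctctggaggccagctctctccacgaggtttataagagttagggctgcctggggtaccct

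Transcription factors of T cell fate moved in both directions. Of 31 tested, 7 were higher in CD8 T cells, 12 were lower and 12 did not pass, with a median of −0.17. Eomes, the T-box factor of cytotoxic and memory CD8 T cells, was at 120.2, 71.6 and 70.5 CPM in CD8 T cells and at 14.4, 4.54 and 0 CPM in conventional CD4 T cells, where the 0 of library 3 allows up to 9.10 CPM. It was the largest rise of the list, at 3.45 (SE 0.23, edgeR adjusted p 2.06e-07). Hopx (1.91), Ikzf3 (1.02), Tbx21 (0.69), Satb1 (0.59) and Id2 (0.42) rose beside Runx3, and of these Satb1 did not pass without library 1 (0.24). Tbx21, which encodes T-bet, did not pass with gamma delta and NK UMIs left out (0.28). Maf, a factor of helper cells that make Il10 and Il21, was at 58.3, 65.8 and 94.6 CPM in CD8 T cells and at 280.0, 296 and 297 CPM in conventional CD4 T cells. The CD4 sums were close to each other and all above the CD8 sums, and the fall was −2.12 (SE 0.11, edgeR adjusted p 2.64e-08). Gata3 (−1.13), Ikzf2 (−1.18), Ahr (−1.04), Irf4 (−0.98), Bach2 (−0.98), Tcf7 (−0.66), Nfil3 (−0.62), Runx1 (−0.54), Bhlhe40 (−0.47) and Klf2 (−0.46) fell beside Zbtb7b. Runx1, Klf2 and Ahr did not pass without library 1 (−0.53, −0.34 and −0.74), nor Bach2 without library 2 (−0.82). Tox, a factor of chronically stimulated T cells, was at 0.38 (adjusted p 0.0694) and Bcl6, the factor of follicular helper cells, at −0.31 (adjusted p 0.425).

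**Figure D3:**
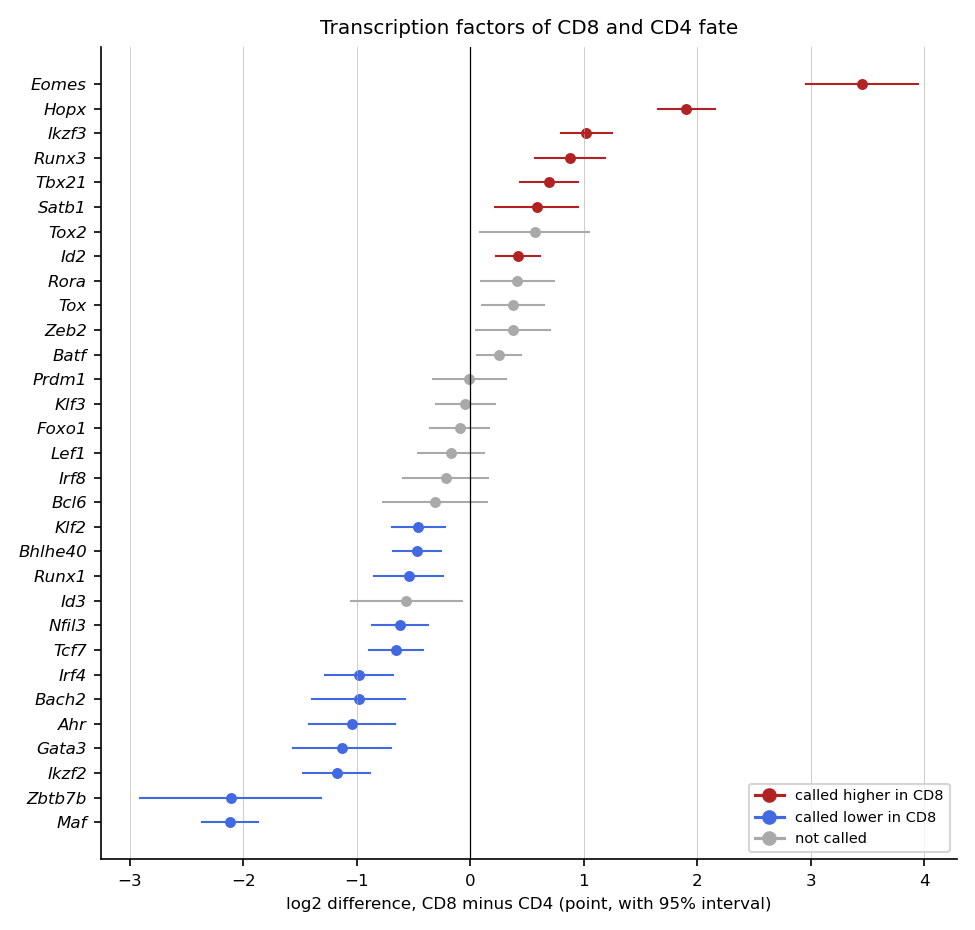
Log2 difference, CD8 minus CD4, with its 95% interval for the 31 transcription factors tested. Red genes were called higher in CD8 T cells, blue genes lower and grey genes were not called; Eomes at 3.45 and Maf at −2.12 mark the ends.

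Helper cytokines fell in CD8 T cells. Of 20 cytokines listed, 12 were tested, of which none rose, 8 fell and 4 did not pass, with a median log2 difference of −1.32. Il21, a cytokine that acts on B cells and CD8 T cells, was at 6.56, 4.21 and 2.01 CPM in CD8 T cells and at 59.7, 114 and 51.6 CPM in conventional CD4 T cells. The lowest CD4 sum was far above the highest CD8 sum, and the fall was −3.93 (SE 0.25, edgeR adjusted p 1.44e-07). Il10, an anti-inflammatory cytokine (chromosome 1, 131019845 to 131024974), was at 9.97, 10.7 and 4.03 CPM against 134, 121 and 75.9 CPM (−3.65, SE 0.16). Il2, the growth factor of activated T cells, was at 2.89, 2.27 and 2.01 CPM against 34.0, 31.0 and 33.4 CPM (−3.64, SE 0.27). Tnfsf11 (RANKL, −3.81), Lta (−2.27), Areg (−1.86) and Tnf (−0.78) fell too. Ifng, the macrophage-activating cytokine that both cell types make, was at 134, 242 and 209 CPM in CD8 T cells and at 218, 303 and 313 CPM in conventional CD4 T cells. The CD8 sum of library 2 lay above the CD4 sum of library 1, so the groups overlapped, but CD8 was lower within each library, by −0.52 (SE 0.10, edgeR adjusted p 0.00214). With at least 1 Cd8b1 UMI needed on the CD8 side, Ifng was at −0.34 and did not pass (edgeR adjusted p 0.0627). With cells lacking both coreceptors counted as CD4, Ifng was at 0.28, the opposite direction, and was not called (edgeR adjusted p 0.0709).

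Costimulation genes moved in both directions. Of 15 tested, 4 rose, 8 fell and 3 did not pass, with a median of −0.59. Cd40lg, the CD40 ligand that licenses B cells and dendritic cells (chromosome X, 57212143 to 57224042), was at 7.87, 8.42 and 2.01 CPM in CD8 T cells and at 205, 182 and 255 CPM in conventional CD4 T cells. It was the largest fall among the named genes, at −4.70 (SE 0.18, edgeR adjusted p 1.31e-09). Tnfsf8, the ligand of CD30, was at 23.4, 10.0 and 12.1 CPM against 324, 211 and 419 CPM (−4.12, SE 0.16), and Tnfrsf4, which encodes OX40, at 99.5, 65.4 and 70.5 CPM against 908, 826 and 1156 CPM (−3.52, SE 0.12). Tnfrsf18 (GITR, −1.56), Cd200 (−1.74), Slamf6 (−1.18), Icos (−1.10) and Cd28 (−0.56) fell. Crtam (2.62), Tnfrsf9 (4-1BB, 0.87), Cd226 (0.61) and Cd27 (0.60) rose, and without library 2 Tnfrsf9 (0.27) and Cd226 (0.41) did not pass.

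Genes of the inhibitory receptor list did not move together. Of 15 tested, 6 rose, 6 fell and 3 did not pass, with a median of −0.06. The list also holds ligands and ectoenzymes, so these counts are not of receptors alone. Pdcd1, which encodes PD-1, was at 642, 535 and 695 CPM in CD8 T cells and at 361, 189 and 291 CPM in conventional CD4 T cells. Its groups did not overlap and it was higher in CD8 T cells by 1.18 (SE 0.11, edgeR adjusted p 7.47e-06). Havcr2, which encodes TIM-3, rose by 1.42, and Cd160, Cd244a, Cd101 (1.17) and the ectoenzyme Entpd1 (CD39, 0.59) rose. Ctla4 ran the opposite way, at 563, 577 and 441 CPM against 1220, 1055 and 865 CPM (−0.99, SE 0.08, edgeR adjusted p 9.25e-07). The ectoenzyme Nt5e (CD73, −2.03), the PD-1 ligands Pdcd1lg2 (−1.08) and Cd274 (−0.52), and Btla (−1.33) and Vsir (−0.52) fell. Lag3 (−0.12, adjusted p 0.599, 95% interval −0.37 to 0.13) and Tigit (0.01, adjusted p 0.982, 95% interval −0.18 to 0.19) did not pass. Entpd1 (0.17) and Cd274 (−0.41) did not pass without library 1, Cd101 (1.46 and 0.75) and Vsir (−0.54 and −0.46) without library 1 or without library 2, and without library 1 Lag3 was called lower (−0.36).

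Regulatory T cell markers moved with Ctla4 and the costimulation genes. Although cells with Foxp3 UMIs had been taken out, 6 of 6 markers tested were lower in CD8 T cells, and their summed level was 913, 951 and 862 CPM against 2153, 1911 and 1915 CPM, Ctla4 being the largest part. Ctla4, Tnfrsf18, Il2ra, Ikzf2 and Il1rl1 of this list are also counted in the lists above or below. Conventional CD4 T cells were still distinct from Foxp3+ CD4 T cells in libraries 1 and 2: Il2ra was at 49.2 and 66.5 CPM against 196 and 229 CPM, and Ikzf2 at 153 and 131 CPM against 465 and 327 CPM. Cd40lg ran the other way, at 205 and 182 CPM in conventional CD4 T cells and 36.6 and 24.1 CPM in Foxp3+ cells, as did Tnfsf8, at 324 and 211 CPM against 29.7 and 22.1 CPM. Tnfrsf4 was at 1620 and 1072 CPM in Foxp3+ cells, above the 908 and 826 CPM of conventional CD4 T cells. Izumo1r (621 and 664 against 241 and 417 CPM) and Ccr8 (296 and 115 against 205 and 69.3 CPM) were also above. Of the other named falls, Tnfsf11, Tiam1, Gpm6b, Spry1 and Tbc1d4 were lower in Foxp3+ cells in both libraries, and Il10 and Tspan32 were split. These levels were not tested, and library 3 held 23 Foxp3+ CD4 T cells. Foxp3+ levels were scaled together with all cell groups and conventional CD4 levels within the 6 sums, so small gaps are uncertain. With cells holding Il2ra or Ikzf2 UMIs left out, each of the 24 named genes was still called.

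Chemokines and chemokine receptors differed in part. Ccl5, a chemokine that attracts T cells and monocytes (chromosome 11, 83525778 to 83530518), was at 14960, 33300 and 40000 CPM in CD8 T cells and at 1492, 3220 and 3256 CPM in conventional CD4 T cells. Library 1 was the lowest on both sides, and the difference within libraries was 3.44 (SE 0.06, edgeR adjusted p 4.58e-13). Xcl1, which attracts cross-presenting dendritic cells, rose by 2.15, and the inflammatory chemokines Ccl4 and Ccl3 by 1.29 and 1.21. Of 10 chemokines tested, these 4 rose, Ccl2 fell (−2.31) and 5 did not pass, with a median of 0.15. Of 12 receptors tested, 4 rose, among them Cxcr6 (1.31), Cx3cr1 (0.89) and Gpr183 (0.78), and 6 fell. Cxcr6, the receptor for Cxcl16, was at 784, 487 and 340 CPM against 372, 192 and 81.9 CPM. Its groups overlapped, since CD8 of library 3 lay below CD4 of library 1, but CD8 was the higher side in each library (SE 0.12, edgeR adjusted p 3.66e-06). Ccr4 (−3.16), Ccr8 (−3.13), Ccr9 (−1.96), Ccr7 (−1.27), Cxcr4 (−1.10) and Cxcr3 (−0.48) fell, and Cxcr5, the receptor of follicular helper cells, was at −0.88 (adjusted p 0.107) at levels of 4.03 to 15.2 CPM. Cx3cr1 did not pass without library 1 (0.95) or without library 2 (0.82), and Cxcr3 did not pass without library 1 (−0.42).

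Genes of tissue egress and adhesion were split as well. Of 15 tested, 7 rose and 6 fell, while 6 rose and 3 fell without library 1, and 3 rose and 4 fell without library 2. S1pr1, the receptor that leads T cells out of tissue, was at 107, 64.5 and 105 CPM in CD8 T cells and at 245, 191 and 237 CPM in conventional CD4 T cells. It fell without overlap, by −1.34 (SE 0.11, edgeR adjusted p 1.51e-06). Ccr7, which guides cells to lymph nodes, fell with it, from 376, 385 and 1220 CPM in conventional CD4 to 193, 179 and 326 CPM in CD8 T cells. Itga1, the CD49a chain of tissue-resident cells, rose by 2.51, and Ly6a (0.97) and Selplg (0.93) rose. Itgae, the CD103 chain, rose by 1.00 (SE 0.20), but was at 0.49 without library 2 and at −0.11 with gamma delta and NK UMIs left out, both below the threshold.

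Cytokine receptors and T cell receptor signalling genes differed in part. Of 24 cytokine receptors tested, 5 rose and 7 fell (2 of 23 and 5 of 23 without library 1). Il7r, the receptor for the survival cytokine IL-7, was at 192, 198 and 272 CPM in CD8 T cells and at 433, 371 and 540.1 CPM in conventional CD4 T cells (−1.03, SE 0.09, edgeR adjusted p 2.11e-06), while Il2rb, the shared IL-2 and IL-15 receptor chain, was at 580.2, 467 and 399 CPM against 314, 296 and 267 CPM (0.73, SE 0.09). Neither gene's groups overlapped. Il6ra (−2.53) and Il2ra (−1.80) fell and Il18rap (1.10) rose. Of 22 signalling genes, 4 rose, 7 fell and 11 did not pass, while 6 rose and 4 fell with cells lacking both coreceptors counted as CD4. Nr4a2, an orphan nuclear receptor induced by T cell receptor signals, was at 582, 422 and 526 CPM in CD8 T cells and at 122, 105 and 146 CPM in conventional CD4 T cells (2.08, SE 0.10, edgeR adjusted p 6.43e-09). Its relative Nr4a1 went the other way, at 448, 345 and 443 CPM against 636, 456 and 674 CPM (−0.49, SE 0.08). Cd5, which dampens receptor signals, fell by 1.57 on the log2 scale, and Dusp1 (−1.02), Nfatc1 (−0.82), Cd247 (−0.75), Zap70 (−0.49) and Cd6 (−0.48) fell, while Themis (0.79), Dusp2 (0.64) and Fyn (0.43) rose. Fyn did not pass without library 1 (0.32), nor Cd6 without library 2 (−0.30).

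Other programmes differed less. Of 16 MHC class I presentation genes, 7 rose and none fell, with a median of 0.21, and Erap1 (0.79), Psmb10 (0.52) and H2-Q7 (0.52) were the largest. B2m rose by 0.20, but did not pass without library 1, without library 2 or without library 3 (0.25, 0.22 and 0.15). Of 12 S100, annexin and galectin genes, 6 rose, among them Lgals3 (1.04), S100a4 (0.60) and S100a6 (0.52), and Anxa5 fell (−0.51). Glycolysis genes changed little, with 3 of 16 higher and 2 lower, the glucose transporter Slc2a3 being the largest (1.20). Of 22 interferon-stimulated genes 1 rose (Irf1, 0.33) and 5 fell, led by Iigp1 (−1.46), Oasl2 (−1.05) and Ifi27l2a (−0.81), but with cells holding B or myeloid UMIs left out 5 of 17 tested rose and 2 fell. Irf1 did not pass without library 2 or without library 3 (0.30 and 0.26), nor Oasl2 without library 1 or without library 2 (−1.60 and −0.80). Ribosomal protein genes rose in CD8 T cells in 53 of 77 cases with none lower, at a small median difference of 0.23, and without library 1 in 25 of 77.

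**Figure D4:**
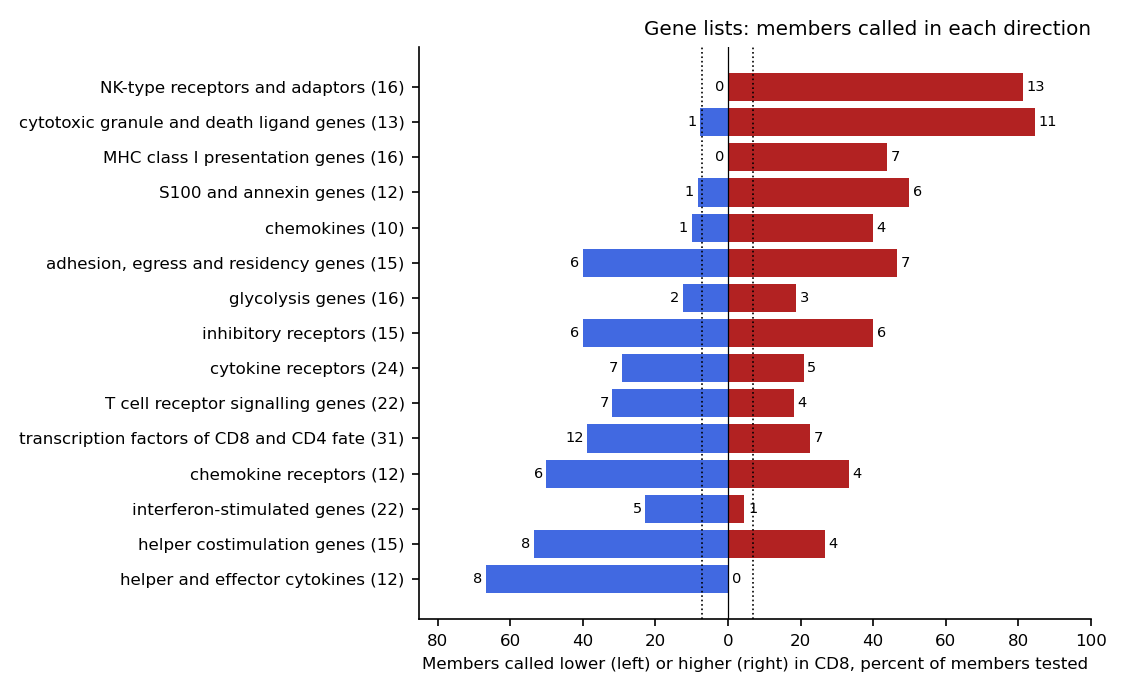
Share of the tested members of 15 gene lists called higher (red, right) or lower (blue, left) in CD8 T cells, in percent of the members tested (number in brackets), with the number called at each bar. Dotted lines mark the 6.95% and 7.05% of all genes tested; NK-type receptors (13 of 16) and cytotoxic genes (11 of 13) lie furthest right and cytokines (8 of 12) furthest left.

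Shares of cells were compared after each cell was thinned to 1000 UMIs, which left out 98, 12 and 18 CD8 T cells and 92, 23 and 25 conventional CD4 T cells as too shallow. B cells, with at least 2 Cd79a UMIs and none of Cd3d, Cd3e or Cd3g, gave the background, since they should hold few of these transcripts. No C1q limit was set for them, and C1qa was at 0, 950.5 and 0 CPM, so library 2 holds macrophage transcripts. Ccl5 UMIs were found in 89.1% ± 2.45 of CD8 T cells (SD, n = 3 libraries), 31.8% ± 7.49 of conventional CD4 T cells and 15.4% ± 8.78 of B cells. Gzmk was found in 38.4% ± 3.84, 8.53% ± 1.01 and 0.786% ± 1.36, and Nkg7 in 80.6% ± 7.67, 28.3% ± 5.38 and 2.29% ± 3.74. Within each library these 3 genes were found in more conventional CD4 T cells than B cells and in more CD8 T cells than conventional CD4 T cells. Prf1, found in 11.2% ± 8.26 of CD8 T cells, was at 0.909% ± 0.391 of conventional CD4 T cells against 1.47% ± 0.902 of B cells, while with cells thinned to 2000 UMIs it was at 2.23% ± 0.534 of conventional CD4 T cells against 0.800% ± 1.11 of B cells. In the other direction, Cd40lg was found in 0.592% ± 0.538 of CD8 T cells, 19.8% ± 3.72 of conventional CD4 T cells and 0 of 639 B cells, which allows up to 0.469%. Il21 was found in 0.452% ± 0.398 of CD8 T cells and 5.64% ± 1.60 of conventional CD4 T cells, and Il10 in 0.533% ± 0.464 and 9.89% ± 1.33. Icos (33.0% ± 8.64 against 58.1% ± 8.37) and Ctla4 (32.9% ± 7.33 against 52.0% ± 5.46) were common on both sides. Tigit was found at 35.5% ± 7.88 against 37.8% ± 8.98 and Lag3 at 27.0% ± 11.8 against 26.5% ± 5.02, with the libraries of the sides overlapping. Before thinning, the shares in CD8 and conventional CD4 T cells were 92.9% and 47.2% for Ccl5, 58.9% and 14.4% for Gzmk, 90.7% and 41.0% for Nkg7, 24.0% and 2.59% for Prf1, 1.60% and 32.8% for Cd40lg, 1.27% and 10.6% for Il21, 2.50% and 13.1% for Il10, 60.5% and 79.5% for Icos, 60.0% and 70.5% for Ctla4, 63.8% and 56.6% for Tigit, and 47.3% and 41.2% for Lag3. At 2000 UMIs Tigit was at 54.2% and 49.2% and Lag3 at 37.4% and 39.6%, so the order of the sides changed with the depth for both genes.

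**Figure D5:**
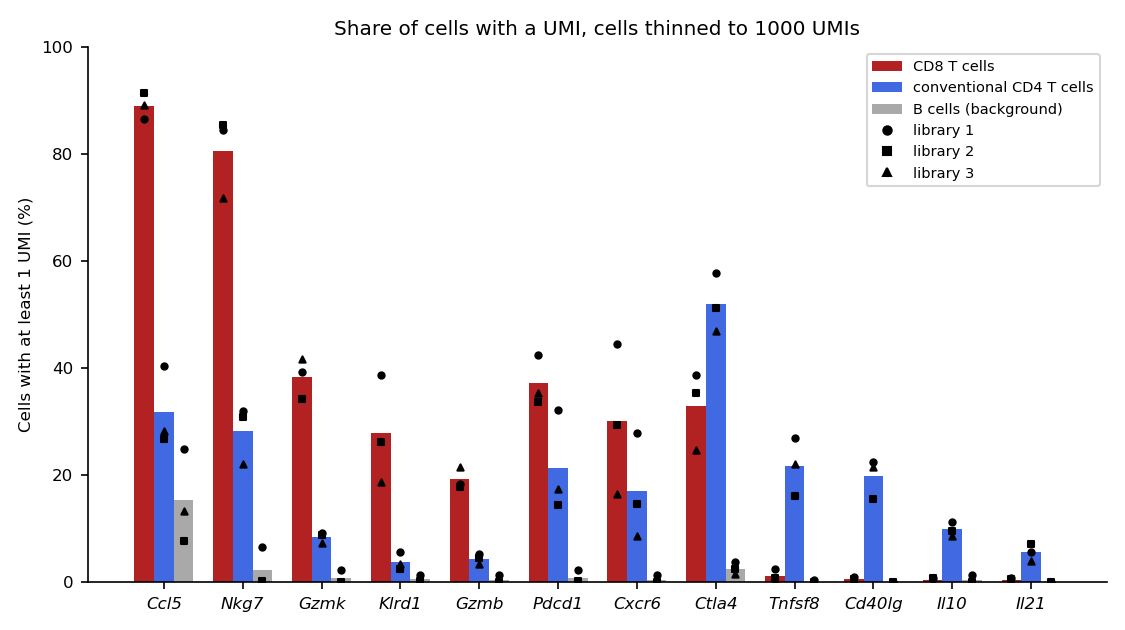
Share of cells with at least 1 UMI (percent) of 12 genes in CD8 T cells (red), conventional CD4 T cells (blue) and B cells (grey, background), after thinning each cell to 1000 UMIs. Bars are means of 3 libraries and markers single libraries; Ccl5 stands at 89.1% against 31.8%, and Cd40lg at 0.592% against 19.8%.

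Natural killer cells, defined by Ncr1 without Cd3, share the cytotoxic genes, and the levels were set side by side without a test. Gzma was at 3185, 3897 and 4144 CPM in NK cells, above the 114 to 703 CPM of CD8 T cells, and Prf1 at 469, 315 and 200.2 CPM against 66.5 to 213 CPM. Gzmk was the reverse, at 37.3, 47.7 and 40.0 CPM in NK cells against 506 to 731 CPM in CD8 T cells, and Ccl5 was at 4105, 7400 and 6827 CPM against 14960 to 40000 CPM. The NK sums rest on 54, 86 and 14 cells. No C1q limit was set for NK cells, and C1qa was at 0, 567 and 0 CPM in them, so library 2 holds macrophage transcripts.

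T cell receptor V genes differed between the sides. Of 40 alpha V genes tested 3 rose and 19 fell in CD8 T cells, with a median of −0.78, and of 19 beta V genes 2 rose and 6 fell, with a median of −0.37. Trav5-4 was at 21.3, 33.4 and 24.2 CPM in CD8 T cells against 69.2, 115 and 85.0 CPM in conventional CD4 T cells (−1.75, SE 0.13, edgeR adjusted p 7.49e-07). Its CD8 sums lay below its CD4 sums in each library. Trav12-2 ran the other way, at 60.6, 7.77 and 36.2 CPM against 8.27, 2.48 and 21.2 CPM (2.34, SE 0.30). V gene sums can be carried by a few expanded clones of 1 mouse, and clones were not followed here. Close V gene copies may share reads, which makes single V genes less certain.

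B cell, macrophage and dendritic cell transcripts were present on both sides and moved with the comparison. Their summed marker levels were lower in CD8 T cells in 3 of 3 libraries: for dendritic cell markers 1334, 3028 and 304 CPM against 3456, 3863 and 2367 CPM, with 4 of 7 tested called lower, for macrophage and monocyte markers 765, 1625 and 433 CPM against 1692, 2088 and 1469 CPM, with 3 of 7 called lower, and for B cell markers 1735, 2380 and 348 CPM against 3471, 3256 and 2118 CPM, with 2 of 2 called lower. Cd74, the MHC class II chaperone, was the largest part of the B cell sum. With cells holding Lyz2, Apoe, Cd79b, Ms4a1, H2-Aa or Cd74 UMIs left out, 453, 222 and 188 CD8 T cells and 325, 217 and 147 conventional CD4 T cells remained, and each of the 24 named genes was still called. In this fit 6261 genes were tested, and 713 of the 1319 called genes were called again in the same direction. Of the 164 listed and named genes, 128 kept direction and side of the threshold, 17 were weaker, 1 was stronger and 2 reversed. Whether other calls were lost with these transcripts or with the smaller number of cells was not tested. T cell markers were at 2931, 3127 and 3560 CPM against 3378, 3566 and 3696 CPM, lower in CD8 T cells in 3 of 3 libraries, with 2 of 8 called lower (Cd247 and Cd28), Schwann cell markers were at 53.8 to 69.0 CPM against 63.7 to 77.2 CPM, and neutrophil markers were at 1.58 to 12.1 CPM against 2.06 to 3.04 CPM. Plasma cell markers stood at 453, 135 and 215 CPM against 181, 133 and 155 CPM, with Igkc called higher in CD8 T cells (2.98), and NK cell markers at 516, 382 and 167 CPM against 457, 342 and 112 CPM. Markers of division other than those of the selection were at 90.5, 109 and 240 CPM against 53.6, 88.7 and 94.1 CPM, with 1 of 5 called higher, Stmn1 (0.91).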

How the data were processed

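Droplet-based 5′ single-cell RNA libraries of CD45+ sciatic nerve cells were deposited as UMI counts per gene and cell, which the authors made with Cell Ranger on the mm10 mouse genome, and the values are raw counts with no normalization. The 32285 gene rows of library 1 were named by the order of libraries 2 and 3 (Spearman correlation of summed counts by row 0.950 and 0.929, against 0.355 and 0.324 when shifted by 1 row). No other cell filter and no doublet caller was applied, and cells with UMIs of both coreceptors were left off both sides.

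Counts were summed per library and side. The sums were compared by the quasi-likelihood test in edgeR 4.0.16 (R 4.3.3), with TMM scaling, filterByExpr and the library as a block, since both sides of a library come from the same mice. Deviations of the sides from their group means correlated within libraries at 0.612, 0.421 and 0.390. P-values were adjusted by Benjamini-Hochberg over 9420 genes at a threshold of 0.05. The 13 selection genes stayed in the totals and were not tested. A permutation test over 3 libraries could not reach this threshold, so shares of cells have no test. One UMI was worth 0.262 to 3.03 CPM. CPM of Foxp3+, NK and other cells off both sides used TMM factors fitted over all sums without filterByExpr. Named genes were the 12 largest differences in each direction among called genes at a mean of at least 50 CPM that moved the same way in each library and were no receptor V, D, J or C genes. The cell groups, gene lists and tests were chosen with earlier results of these data known. The ribosomal protein list in particular came from such a result. The steps were tested on simulated counts. Alternatives were DESeq2 1.42.0, its size factors, other count filters, no block, each library left out, and other cell limits.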

Additional observations from a re-analysis of the deposited data

Results flagged for a closer look

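T cells that the comparison left out carried signals of both sides. In T cells with UMIs of neither coreceptor, Cd40lg was at a mean of 91.2 CPM and Klrc1 at a mean of 133 CPM over 3 libraries. In T cells with UMIs of both coreceptors, the means were 102 CPM for Cd40lg and 328 CPM for Klrc1. Cd40lg and Klrc1 were picked by name for these cells, and no threshold chose them. The main comparison used neither group of cells, but cells with neither coreceptor were counted as CD4 in an alternative. By library, Cd40lg was at 60.6, 113 and 100.1 CPM and Klrc1 at 130.2, 94.3 and 174 CPM in the 2484 cells with neither coreceptor. The cells with both coreceptors numbered 160, 73 and 7. In them Cd40lg was at 127, 77.4 and 102 CPM and Klrc1 at 219, 219 and 546 CPM. Library 3, with 7 cells, counts as much in these means as the others.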

How the results depend on the processing

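For 164 genes of the lists and the named genes, 2690 values under other settings were computed: 2303 kept their direction and side of the threshold, 344 were weaker, 17 were stronger and 26 reversed, and 98 could not be tested because the gene did not pass the filter. Sums of library 3 were the shallowest, so low genes are the least certain there. Without the replicate block, which takes the pairing of both sides within a library out of the fit, 87 genes were higher and 112 lower, and 109 of the 164 genes were weaker. Counts of genes higher and lower in CD8 T cells were 342 and 345 with DESeq2, 413 and 305 with at least 50 CPM, 426 and 502 with at least 2 coreceptor UMIs, 273 and 273 with cells thinned to 1000 UMIs, 402 and 392 with B or myeloid UMIs left out, and 426 to 665 and 454 to 699 with a library left out. Fewer genes were tested with at least 50 CPM (2754), thinning (6370) and B or myeloid UMIs left out (6261), and for the others the cause was not tested. The CD8 to CD4 cell ratio was 2.53 with at least 2 coreceptor UMIs and 0.473 with cells lacking both counted as CD4.

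Counting cells without coreceptor UMIs as CD4 reversed Gzma (−0.16), Serpinb6b (−0.22), Serpinb9 (−0.32), Klri2 (−0.60), Klrg1 (−0.69), Klra1 (−1.19), Klra9 (−1.63), Cd244a (−0.29), Satb1 (−0.13), Ifng (0.28), Itgae (−0.052), Itga4 (0.067), Cd6 (0.051), Lag3 (0.47) and Fcer1g (−0.95) on the log2 scale. Lag3, called in 2 of 17 alternatives, also reversed with Il2ra or Ikzf2 UMIs left out (0.24). Itgae (−0.11) reversed with gamma delta or NK UMIs left out. Tigit, not called in the main fit, was called in 1 of 17 alternatives, and its values ran from −0.12 to 0.27. With a library left out Tigit ranged from −0.099 to 0.084 and was reversed without library 1. It also reversed with thinning (−0.12), with B or myeloid UMIs left out (−0.013) and with gamma delta or NK UMIs left out (−0.089). Tyrobp reversed with thinning (0.23) and with B or myeloid UMIs left out (2.43). Fcer1g reversed with Cd8b1 needed (−0.74), with Il2ra or Ikzf2 UMIs left out (−0.55) and with gamma delta or NK UMIs left out (−0.25). The cause was not tested. The 24 named genes were called under each alternative, except Spry1 without the block and Gzma with cells lacking both coreceptors counted as CD4.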
